A study of Rattus norvegicus with 42 samples.

Results

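This comparison set the 70/25/5 mixture against the 25/70/5 mixture, each name giving the percentages of liver, brain and lung. From 25/70/5 to 70/25/5, 45 points of liver take the place of 45 points of brain while lung stays at 5%. The members were the arrays whose tissue label gives those percentages, 3 for each mixture, 6 of the 42 arrays in the series. The series measured gene expression on Affymetrix rat arrays in liver, brain and lung of 1 rat, pure and in 11 mixtures, and its title gives the purpose as testing statistical deconvolution. All groups share the same origin: the labels give untreated animals of 9 to 12 weeks, and strain and sex are not given in the sources used here. The mixing was done on the labelled RNA (cRNA), with 3 technical replicate arrays a mixture. P-values therefore measure the spread between arrays of the same RNA, not between animals, and the shares are shares of labelled RNA, not of cells. In bulk RNA of this kind, fewer cells of a type and less RNA per cell cannot be told apart.

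Liver is the main source of plasma proteins and handles amino acids, glucose, fat, bile acids and foreign compounds, mostly in hepatocytes. Brain RNA comes from neurons, which release transmitters and peptides from vesicles and carry channels and receptors in their membranes, and from glia such as myelinating oligodendrocytes and astrocytes. Lung is marked by surfactant-secreting alveolar type 2 cells, flat alveolar type 1 cells, airway cells, vessels and immune cells. In a mixture of labelled RNA that adds up linearly, a transcript made in liver alone would follow the liver share, a transcript made in brain alone would follow the brain share, and a transcript made in lung alone would stay level.

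The 6 arrays were alike in median level and in replicate spread. Their medians lay between 5.73 and 5.78 (log2 of the RMA level), and the median SD between replicate arrays was 0.08 in 70/25/5 and 0.08 in 25/70/5. Pearson's r over all probe sets was 0.997 to 0.998 between replicates and 0.970 to 0.971 between the mixtures. No replicate pair shared more than 16 equal values, so each array counted as 1 replicate, and the number of arrays limits the precision (the 95% interval of a difference reached 0.19 to each side in the median). Markers were read in the pure arrays: the albumin gene Alb read 14.31 in pure liver, 12.21 in pure brain and 5.07 in pure lung, the glycolytic gene Aldoc of astrocytes 12.52 in pure brain against 5.17 in pure liver, and the club cell gene Scgb1a1 14.04 in pure lung against 3.85 in pure liver. The hybridisation controls, bacterial and phage transcripts spiked onto each array, were not level between the mixtures. The dimmest, bioB, averaged 7.92 in 70/25/5 and 7.49 in 25/70/5, while the brightest, cre, averaged 12.94 in 70/25/5 and 13.10 in 25/70/5.

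Of the probe sets tested, 16455 (53%) passed limma's test at an adjusted p under 0.05, with 6869 (22.1%) higher and 9586 (30.9%) lower in 70/25/5. At 1.5-fold or more, 6548 (21.1%) were called, of which 2796 (9.01%) were higher and 3752 (12.1%) lower. Among 14217 genes, each read by 1 probe set, 8784 (61.8%) were called: 4169 (29.3%) were higher and 4615 (32.5%) lower, and the 3 arrays a group did not overlap for 4697 (33%) in the higher direction and 5005 (35.2%) in the lower. Over probe sets these were 8157 (26.3%) and 10540 (34%). A transcript found in liver alone could differ by at most the ratio of the liver shares, 2.8-fold or 1.49 on the log2 scale, and one found in brain alone by the same ratio downwards. The higher side passed that ratio and the lower side did not: 649 probe sets (2.09%) were past it upwards and 0 downwards. Among genes 451 (3.17%) were past it upwards. These counts rest on the size of the difference, with no condition on p. Each array was also moved along a curve through its 4 hybridisation controls (the control curve). The median of all probe sets then moved to -0.43 from -0.01 as deposited, and 237 probe sets passed the ratio upwards and 96 downwards. Probe sets dimmer than bioB were moved by the bioB difference of 0.43 alone. Turns of direction among them restate the difference of that control. A gene that does not pass the test under the control curve is not thereby shown to be level.

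The genes farthest higher in 70/25/5 were genes of liver. Rtp3, a receptor-transporter gene, read 7.55, 7.72 and 7.74 on the 70/25/5 arrays, against 5.39, 5.33 and 5.28 on the 25/70/5 arrays. The groups lay far apart, with a difference of 2.34 ± 0.07 (log2, SE, n = 3 each), 5.05-fold higher, adjusted p = 1.25e-23. Dsc2, which encodes the desmosomal cadherin desmocollin 2, read 7.56, 7.70 and 7.44 in 70/25/5, against 5.22, 5.46 and 5.04 in 25/70/5. It was 5.02-fold higher (difference 2.33 ± 0.10, adjusted p = 1.14e-19), again with no overlap. Angptl8, a secreted regulator of lipoprotein lipase, read 7.37, 7.32 and 7.33 in 70/25/5, against 5.04, 5.12 and 5.16 in 25/70/5, a difference of 2.23 ± 0.08 (adjusted p = 7.08e-22). Pure liver read 8.92, 8.85 and 8.45 for these 3 genes, and pure brain 3.24, 2.73 and 3.24. Such brain values are near the 2.52 to 2.62 of the bacterial dap control on the 6 arrays.

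The other genes of the leading 12 included genes of lipid handling, acyl transfer and secretion. Apon, an apolipoprotein gene, differed by 2.17, the lipid droplet gene Cidec by 2.08 and Stra6l, related to the retinol-binding protein receptor, by 2.1. The glycine acyltransferase genes Glyatl2 and Glyat differed by 2.12 and 2.09, and Frk, a tyrosine kinase gene, by 2.15. Serpina7, which encodes thyroxine-binding globulin, differed by 2.08, Cd5l, a secreted protein of macrophages, by 2.08, and the cytochrome P450 gene Cyp3a18 by 2.09. Cyp3a18 had 1 array apart from its group, with 4.62, 5.13 and 4.55 on the 25/70/5 arrays. The 12 differences lay between 2.08 and 2.34, all past the share ratio, and none of the 12 had overlapping arrays.

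**Figure D1:**
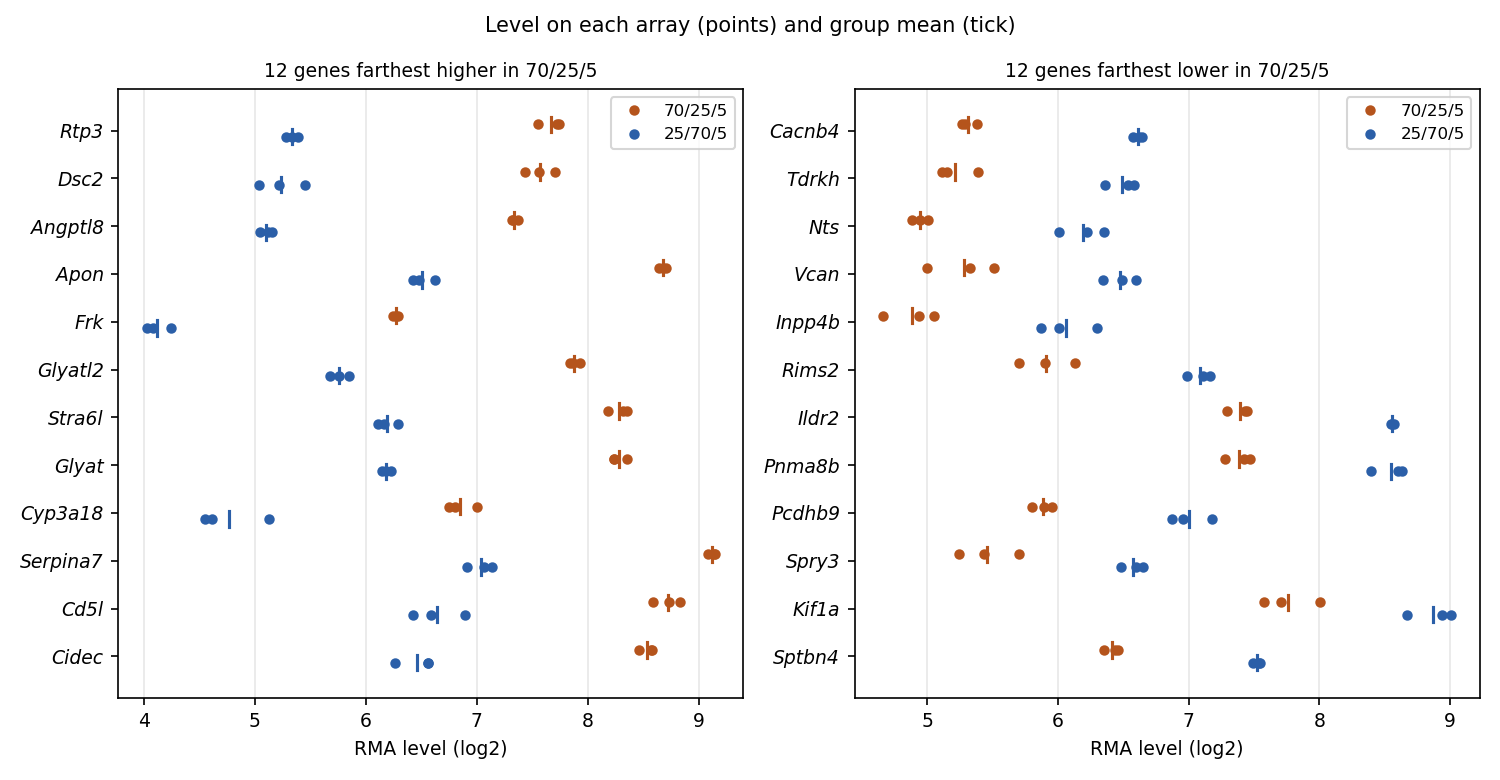
RMA level (log2) on each of the 3 arrays of 70/25/5 (orange) and of 25/70/5 (blue) for the 12 genes farthest higher and the 12 farthest lower, with ticks at the group means. The gap is 2.34 for Rtp3 at the top left and -1.30 for Cacnb4 at the top right, and in no gene do the groups overlap.

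Promoters are shown for members that moved together. HNF1 factors are homeodomain proteins that drive many hepatocyte genes, and the letters GTTAATNAT begin their palindromic site. Both strands of the 250 bases before and 50 after each gene's start were searched in the RefSeq promoters of the GRCr8 build. Those letters stood in 206 (0.75%) of all 27457 promoters given, against 24 of 1141 (2.1%) for genes enriched in pure liver, 2 of 1316 (0.152%) for brain and 3 of 1260 (0.238%) for lung. Among the 374 genes past the share ratio whose promoter was given, 15 (4.01%) held them. The C/EBP palindrome TTGCGCAA was in 0.197% of all promoters and 0.175% of those enriched in liver, and the TATA letters TATAAA in 14.3% of all and 10.4% of liver. These counts describe letters in these windows, not binding. Among the named genes with the HNF1 letters, Angptl8, C5 and Lipc had the largest differences (2.23, 1.82 and 1.80). The letters also stood in promoters of named genes that differed less: Fga (0.98), Gc (0.38), Rup2 (0.24) and Alb (0.03). Alb did not pass the test. Fga, Gc, Rup2 and Alb were all read at the top of the scale in pure liver. Small differences there do not measure how far a transcript differed. These genes therefore cannot show whether the letters go with a large difference.

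Shown here are 3 promoters that hold the HNF1 letters, 5′ to 3′ on the gene's strand, with the match in capitals: Angptl8 (chr8:28652305-28652604, plus strand, match beginning at -71 from the start), the complement gene C5 (chr3:38759419-38759718, minus strand, match at -33 and read on the opposite strand) and the hepatic lipase gene Lipc (chr8:80516236-80516535, minus strand, match at -15).
Angptl8: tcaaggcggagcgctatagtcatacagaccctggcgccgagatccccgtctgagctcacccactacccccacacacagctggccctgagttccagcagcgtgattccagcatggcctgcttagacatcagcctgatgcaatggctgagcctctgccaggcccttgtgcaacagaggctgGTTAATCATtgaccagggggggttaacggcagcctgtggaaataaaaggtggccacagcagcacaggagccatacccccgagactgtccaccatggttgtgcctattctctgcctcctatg
C5: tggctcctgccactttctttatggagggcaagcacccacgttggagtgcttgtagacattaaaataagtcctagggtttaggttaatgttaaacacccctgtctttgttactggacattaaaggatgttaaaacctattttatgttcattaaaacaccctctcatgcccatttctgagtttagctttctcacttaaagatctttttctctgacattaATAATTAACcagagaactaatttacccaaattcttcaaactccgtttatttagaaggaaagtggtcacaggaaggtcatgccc
Lipc: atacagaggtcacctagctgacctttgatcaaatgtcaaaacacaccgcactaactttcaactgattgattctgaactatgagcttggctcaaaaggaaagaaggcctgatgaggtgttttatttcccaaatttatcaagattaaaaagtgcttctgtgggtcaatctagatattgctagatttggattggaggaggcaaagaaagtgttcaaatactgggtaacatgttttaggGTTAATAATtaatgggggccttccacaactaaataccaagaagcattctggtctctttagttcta

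Genes for secreted liver proteins were higher together, with a wide range of sizes. All 15 measured clotting and fibrinolysis genes were higher (median difference 1.51), as were all 14 complement genes (median 1.73), all 15 apolipoprotein and lipoprotein export genes (median 1.5) and 17 of 19 plasma carriers and protease inhibitors (median 0.88), beside a median of 0.01 and 29.3% higher over all genes. Proc, which encodes protein C, an inhibitor of clotting, read 10.92, 10.90 and 10.93 in 70/25/5, against 8.86, 9.05 and 9.11 in 25/70/5, with a difference of 1.91 ± 0.08 (adjusted p = 2.1e-20). The mannose-binding lectin gene Mbl1 read 9.75, 9.76 and 9.77 in 70/25/5, against 7.90, 7.77 and 7.89 in 25/70/5, and C5 read 10.41, 10.42 and 10.39 in 70/25/5, against 8.54, 8.58 and 8.63 in 25/70/5. In both genes the 70/25/5 arrays lay far above the 25/70/5 arrays. C5 differed by 1.82, the C8 chain gene C8b by 1.84 and the lectin pathway protease gene Masp2 by 1.89. A further probe set of Masp2 went the other way, at -0.51.

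Other secreted products past the ratio were the clotting regulators Klkb1 (plasma prekallikrein, 1.75), Cpb2 (1.76) and Serpind1 (heparin cofactor II, 1.68). Lipc differed by 1.80 ± 0.06, Mttp, which loads lipid onto apolipoprotein B, by 1.78, Apom by 1.77 and Apoa4 by 1.76. Among carriers, Serpina6 (corticosteroid-binding globulin) differed by 1.67, the protease inhibitor genes Mug1 by 1.71 and Serpinf2 by 1.90.

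Some well known liver products were read by probe sets at the top of the scale, where the mixtures read almost as high as pure liver. Alb read 14.37, 14.36 and 14.34 in 70/25/5, against 14.32, 14.33 and 14.32 in 25/70/5, a difference of 0.03 ± 0.06 that did not pass the test (adjusted p = 0.691). It read 14.31 in pure liver, 12.21 in pure brain and 5.07 in pure lung. The transthyretin gene Ttr, which the choroid plexus also makes, read 13.33, 13.32 and 13.35 in 70/25/5, against 13.22, 13.29 and 13.28 in 25/70/5 (difference 0.07, adjusted p = 0.223), with 13.33 in pure liver and 13.09 in pure brain. Gc, the vitamin D-binding protein gene, read 13.60, 13.62 and 13.59 in 70/25/5, against 13.18, 13.24 and 13.25 in 25/70/5, with 13.60 in pure liver and a difference of 0.38. A second probe set of Gc averaged 10.10 in 70/25/5 and 8.24 in 25/70/5, a difference of 1.86. Where 70/25/5 reads as high as pure liver, a small difference on such a probe set does not measure how far the transcript differed, and whether the arrays were saturated there was not tested.

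With the same limit, Hp (haptoglobin) differed by 0.47, Apoc3, an inhibitor of lipoprotein clearance, by 0.33, and the complement gene C3 by 0.63, each past the test. They read 13.49, 13.58 and 13.57 in pure liver. The fibrinogen genes Fga and Fgg, at 13.50 and 13.13 in pure liver, were higher by 0.98 and 0.81. Apoe differed by 0.19, with 13.59 in pure liver and 12.93 in pure brain, and its direction turned to -0.025 when arrays were aligned on bright lung-enriched probe sets.

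Amino acid and nitrogen metabolism followed liver in every measured member. All 19 urea cycle and amino acid breakdown genes were higher, with a median of 1.57. Kmo, a kynurenine pathway enzyme of tryptophan breakdown, read 9.36, 9.27 and 9.23 in 70/25/5, against 7.36, 7.36 and 7.43 in 25/70/5 (difference 1.90 ± 0.07). Tat, which starts tyrosine breakdown, differed by 1.83, the glyoxylate enzyme gene Agxt by 1.82 and Haao by 1.79. The urea cycle genes Ass1 and Cps1 had the smallest differences of the list, 1.13 and 0.70. A second probe set of Cps1 differed by 1.59.

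The cytochrome P450 list, monooxygenases that act on drugs, steroids, fatty acids and bile acids, had 23 of 28 members higher and 2 lower (median 1.34). Cyp4a1, a fatty acid hydroxylase, read 10.32, 10.32 and 10.42 in 70/25/5, against 8.37, 8.26 and 8.38 in 25/70/5, a 4.03-fold difference. Cyp7a1, the rate-limiting enzyme of bile acid synthesis, differed by 1.89 and Cyp2b3 by 1.99. The members lower in 70/25/5 were Cyp46a1, the cholesterol 24-hydroxylase of neurons, at -0.60 ± 0.08 (adjusted p = 9.8e-08), and Cyp7b1, an oxysterol hydroxylase, at -0.59 ± 0.11 (adjusted p = 3.48e-05). Pure brain read 8.96 for Cyp46a1, against 6.86 in pure liver. Cyp2c7 differed by 0.24 and Cyp2c12, known in rats as a form of female liver, by 0.30, although pure liver read 13.42 and 13.15 and pure brain 7.66 and 7.10. The male-type forms Cyp2c11 and Cyp3a2 read 4.20 and 3.43 in pure liver and did not pass the test, at 0.14 and 0.15. Probe sets of closely related P450, Ugt and Gst genes can share target RNA, so values of single members of those families are uncertain.

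Conjugating enzymes split by tissue within gene families. Of 25 measured, 19 were higher and 4 lower (median 1.27). Nat8, an acetyltransferase gene, differed by 1.99, the glutathione transferase genes Gsta3 and Gstm2 by 1.91 and 1.71, and the glucuronosyltransferase gene Ugt2b1 by 1.77. The lower members were Ugt8, which makes the galactolipids of myelin (-0.97), Gstm5 (-0.90), the brain sulfotransferase gene Sult4a1 (-0.90) and Gstp1 (-0.39). Gstm2 and Gstm5, of the same glutathione transferase class, read 9.79, 9.76 and 9.74 and 8.54, 8.43 and 8.45 in 70/25/5, against 8.08, 8.0 and 8.09 and 9.40, 9.34 and 9.38 in 25/70/5. They moved in opposite directions with no overlap of arrays in either.

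Bile acid synthesis and transport had 18 of 19 members higher (median 1.59). The sinusoidal uptake carrier gene Slco1a1 differed by 1.99, Nr1h4, the bile acid receptor FXR, by 1.99, and the canalicular export pumps Abcc2 and Abcb11 by 1.94 and 1.93. Slco1a4, a carrier also present at the blood-brain barrier, differed by 0.68, with 10.01 in pure liver and 8.56 in pure brain. Abcg8 did not pass the test (0.06).

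Of the glucose production and glycogen list 9 of 10 genes were higher (median 1.66). Gys2, the liver glycogen synthase, read 7.06, 7.09 and 7.10 in 70/25/5, against 4.90, 5.04 and 5.16 in 25/70/5 (difference 2.05 ± 0.09). The glucose transporter gene Slc2a2 differed by 1.87 and Ppp1r3b, which directs protein phosphatase 1 to glycogen, by 1.97. Pck2 did not pass the test (-0.11). For fatty acid oxidation and ketone bodies 16 of 18 genes were higher and 2 lower (median 1.2). Ehhadh, of peroxisomal oxidation, differed by 2.0, and the mitochondrial genes Cpt2 and Acaa2 by 1.58 and 1.51. Both lower members act outside the liver: Oxct1, which uses ketone bodies in other tissues, at -0.72 ± 0.14, and Cpt1c, the carnitine palmitoyltransferase form of brain, at -0.55 ± 0.11.

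All 16 liver transcription factors were higher (median 1.61), led by Nr1h4, Creb3l3, a regulator of lipid genes (1.90), Onecut1 (1.87) and the nuclear receptor gene Nr5a2 (1.86). Prox1 and Xbp1, which are used in other tissues too, had the smallest differences, 0.85 and 0.40. Of the metal and heme genes 13 of 14 were higher (median 1.10). The hemojuvelin gene Hjv read 8.91, 8.94 and 8.99 in 70/25/5, against 6.80, 6.95 and 6.99 in 25/70/5. With Hamp, the iron hormone hepcidin (1.76), its regulators Hjv (2.03) and Tfr2 (1.79) and the iron exporter gene Slc40a1 (1.56), all 4 passed the share ratio. The transferrin receptor gene Tfrc did not pass the test (-0.11), and Hmox2, a heme oxygenase at 0.12, turned to -0.27 under the control curve and -0.095 with arrays aligned on lung.

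Of the 12 genes farthest lower in 70/25/5, 11 were enriched in pure brain. Vcan, the exception, read 6.73 in pure brain and 6.21 in pure lung. Cacnb4, a subunit of voltage-gated calcium channels, read 5.38, 5.26 and 5.29 in 70/25/5, against 6.64, 6.57 and 6.62 in 25/70/5. That difference of -1.30 ± 0.13 (2.46-fold lower, adjusted p = 4.13e-10) was the farthest below 0 of all 14217 genes. Nts, the precursor of the peptide neurotensin, read 4.88, 4.94 and 5.01 in 70/25/5, against 6.23, 6.35 and 6.0 in 25/70/5 (-1.25 ± 0.10). Vcan, the matrix proteoglycan versican, read 5.51, 5.33 and 5.00 in 70/25/5, against 6.34, 6.49 and 6.59 in 25/70/5 (-1.2 ± 0.09). Neither gene had overlapping arrays.

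The rest of that group of 12 lay between -1.28 and -1.11. It held the presynaptic scaffold gene Rims2 (-1.17), the axonal motor gene Kif1a (-1.11), the axon initial segment spectrin gene Sptbn4 (-1.11) and the protocadherin gene Pcdhb9 (-1.12). Inpp4b, a phosphoinositide phosphatase (-1.17), Tdrkh (-1.28), Ildr2 (-1.17), Pnma8b (-1.16) and the sprouty gene Spry3 (-1.12) completed it. Kif1a varied between arrays, with 7.57, 7.70 and 8.0 in 70/25/5 against 8.94, 8.67 and 9.01 in 25/70/5, a difference of -1.11 ± 0.25 (adjusted p = 0.000236).

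A motif of a factor known from neurons was searched in the same way. The cAMP response element TGACGTCA, bound by CREB family factors, stood in 50 of 1316 promoters of genes enriched in pure brain (3.8%), against 1.91% of all promoters, 1.67% for liver and 1.9% for lung. It stood in 0 of the 374 promoters of genes past the share ratio. Named genes that held it differed both ways. Ldha (0.79), Psmb2 (0.50) and Sdhb (0.22) differed upwards, Cartpt (-0.56) and Kif5c (-1.05) downwards. Kif5c, a neuronal kinesin heavy chain gene, is shown as a brain promoter with the response element in capitals (chr3:54441057-54441356 of GRCr8, plus strand, match beginning at -42).
Kif5c: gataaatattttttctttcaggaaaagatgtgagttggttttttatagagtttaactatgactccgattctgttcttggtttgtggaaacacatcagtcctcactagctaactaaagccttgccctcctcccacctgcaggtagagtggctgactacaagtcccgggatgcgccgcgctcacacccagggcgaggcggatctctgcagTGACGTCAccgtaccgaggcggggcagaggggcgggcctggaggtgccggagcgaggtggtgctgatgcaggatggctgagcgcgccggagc
Kif5c read 8.64, 8.78 and 8.88 in 70/25/5, against 9.79, 9.68 and 9.96 in 25/70/5 (-1.05 ± 0.16).

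Of 27 synaptic vesicle and SNARE genes 26 were lower and 0 higher (median -0.83), beside 32.5% lower over all genes. Cplx1, a complexin that clamps vesicle fusion, read 10.74, 10.67 and 10.69 in 70/25/5, against 11.63, 11.63 and 11.65 in 25/70/5 (1.92-fold lower, adjusted p = 2.28e-14). The active zone gene Rims1 differed by -1.0, Cplx2 by -0.96 and Slc32a1, the vesicular carrier of GABA and glycine, by -0.94. Rph3a was the member that did not pass (-0.30). All 25 glutamate receptor and postsynaptic genes were lower (median -0.81). The kainate receptor gene Grik2 differed by -1.10, the AMPA receptor gene Gria2 by -1.03, the metabotropic receptor gene Grm3 by -1.0 and the NMDA receptor gene Grin2a by -0.99. The smallest differences in that list were those of the scaffold gene Shank3 (-0.54) and Grin2c, the NMDA receptor form of cerebellum (-0.43).

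GABA and glycine signalling held members of both tissues. There were 14 of 19 genes lower and 2 higher (median -0.85). The receptor gene Gabra2 read 6.53, 6.84 and 6.75 in 70/25/5, against 7.71, 7.77 and 7.92 in 25/70/5 (-1.09 ± 0.08), and Gad2, which makes GABA, differed by -1.01 ± 0.17. The members higher in 70/25/5 were Slc6a13, a GABA carrier, and Abat, which breaks GABA down. Slc6a13 read 9.06, 9.00 and 9.09 in 70/25/5, against 7.31, 7.38 and 7.39 in 25/70/5, a difference of 1.69. Abat read 8.88, 8.86 and 8.86 in 70/25/5, against 7.62, 7.60 and 7.68 in 25/70/5, a difference of 1.23. Pure liver read 9.83 and 9.51 for this pair, and pure brain 5.66 and 6.86.

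Of 27 voltage-gated channel genes 22 were lower and 1 higher (median -0.80). After Cacnb4, the largest falls were those of the sodium channel genes Scn1a (-1.0) and Scn2b (-0.93) and the potassium channel gene Kcna2 (-0.98). Cacna1e, a calcium channel gene, was higher at 0.30 ± 0.11 (adjusted p = 0.0266), and its direction turned to -0.13 under the control curve. Cacng2, an AMPA receptor partner, did not pass on the probe set used (0.05), while another of its probe sets was lower at -0.75.

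Neuropeptides and granins, the cargo of dense-core vesicles, were lower in all 19 measured members (median -0.86). Beside Nts, the granin-like chaperone gene Scg5 differed by -1.09, Scg3 by -0.92 and the substance P precursor gene Tac1 by -0.92. The smallest were Cartpt (-0.56) and Adcyap1, the precursor of the peptide PACAP (-0.45). All 23 neuronal cytoskeleton genes were lower too (median -0.90), among them the neurofilament gene Nefm (-1.01) and the microtubule gene Mapt, which encodes tau (-1.01). Calcium-binding and cerebellar markers had 13 of 15 lower (median -0.89), with Calb1 of Purkinje cells at -0.99, Cbln1 of granule cells at -0.93 and Pcp4 at -0.94. Zic1 and Zic2 did not pass the test (-0.08 and -0.02). Brain transcription and RNA-binding factors had 17 of 19 lower (median -0.88), led by Myt1l (-1.01), Pou3f1 (-0.99) and Neurod1 (-0.98). Neurod2 and the splicing factor gene Nova2 did not pass (-0.21 and 0.19).

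Glial genes were lower as well. Of 19 myelin and oligodendrocyte genes 16 were lower and 1 higher (median -0.81). Cldn11, a tight junction protein of myelin, read 10.76, 10.69 and 10.68 in 70/25/5, against 11.75, 11.70 and 11.69 in 25/70/5 (-1.0 ± 0.07), and the lineage factor gene Olig1 differed by -1.03. The member higher was the connexin gene Gjb1, which joins hepatocytes as well as serving myelin: it read 10.74, 10.68 and 10.78 in 70/25/5, against 8.94, 9.11 and 9.15 in 25/70/5, with 11.24 in pure liver and 6.46 in pure brain. Of 14 astrocyte genes 13 were lower and 0 higher (median -0.88). Aldoc (-1.07), the filament gene Gfap (-1.06), the glutamate carrier gene Slc1a3 (-1.04) and the calcium-binding gene S100b (-1.03) led them. The smallest called was Ndrg2 (-0.20), with 12.30 in pure liver and 12.74 in pure brain. Slc1a2 did not pass on the probe set used (0.13), while another of its probe sets was lower at -0.38. Some genes stand in more than 1 list, among them Ugt8, Pvalb, Lyz2, Ttr and Nr1h4. The medians of the liver lists stayed above 0 and those of the brain lists below 0 under each scaling run.

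**Figure D2:**
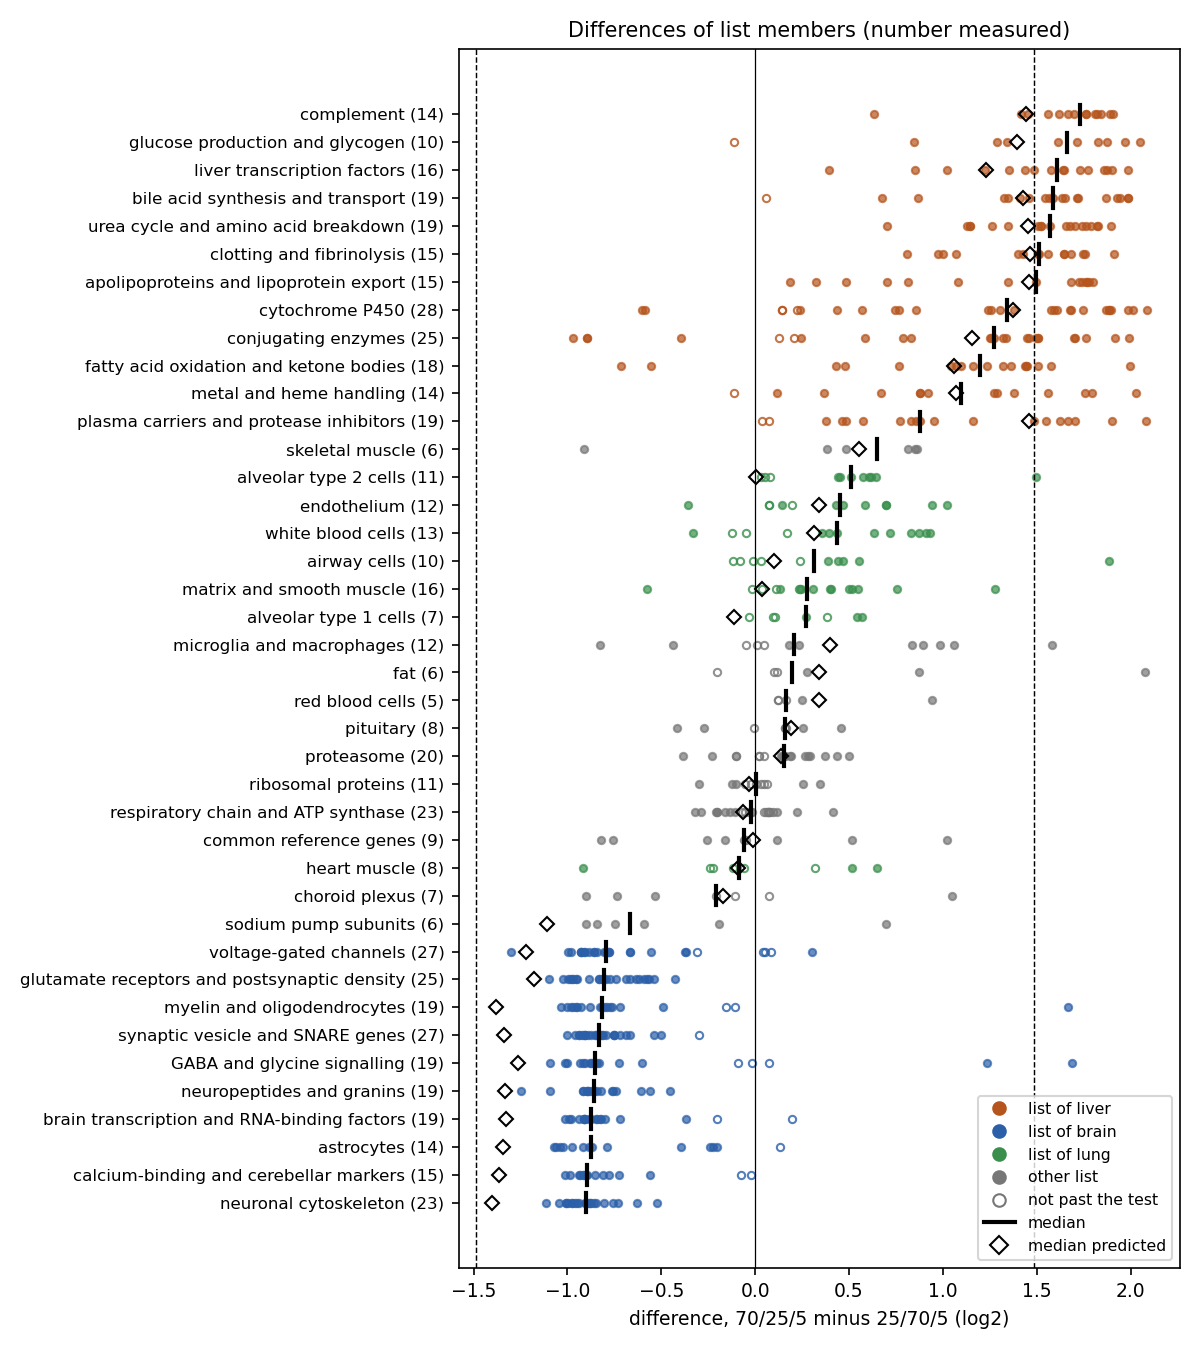
Differences in log2 level, 70/25/5 minus 25/70/5, of the measured members of the gene lists other than the isozyme pairs, ordered by their median (bar), with open points for members that did not pass the test and diamonds for the median predicted from pure tissues. Dashed lines mark the share ratio at 1.49 and -1.49. The complement median lies at 1.73 and the neuronal cytoskeleton median at -0.90. The medians of the alveolar type 1, airway, matrix, microglia, pituitary, red blood cell, fat and proteasome lists, above 0 here, lie below it under the control curve.

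Isozymes, enzymes of 1 reaction made from different genes, were compared form by form. Of 31 measured genes 13 were higher and 16 lower. In glycolysis, Pklr, the liver pyruvate kinase, read 8.46, 8.55 and 8.33 in 70/25/5, against 6.41, 6.53 and 6.24 in 25/70/5 (2.05 ± 0.08). Aldoc read 11.01, 11.02 and 10.999 in 70/25/5, against 12.06, 12.09 and 12.08 in 25/70/5 (-1.07 ± 0.05). The hexokinase gene Hk1 differed by -0.81, the phosphofructokinase genes Pfkp and Pfkl by -0.91 and -0.29, and the enolase genes Eno2, the neuronal form, and Eno1 by -0.88 and -0.17. The ketohexokinase gene Khk differed by 1.82. The lactate dehydrogenase chains split as Ldha at 0.79 and Ldhb at -1.0, with no overlap: Ldhb read 11.11, 11.11 and 11.07 in 70/25/5, against 12.09, 12.07 and 12.13 in 25/70/5.

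In other reactions 1 form was higher and another lower. Glycogen synthase was 2.05 for Gys2 and -0.49 for Gys1, glycogen phosphorylase 1.83 for Pygl and -0.81 for Pygb, and glucose transport 1.87 for Slc2a2 and -0.86 for Slc2a3, the neuronal carrier. S-adenosylmethionine synthesis differed by 1.53 for Mat1a and -0.56 for Mat2a, and fatty acid activation by 1.07 for Acsl1 and -0.82 for Acsl6. Carbonic anhydrase differed by 1.64 for Car3 and -0.72 for Car2. The fatty acid-binding genes Fabp1 of liver and Fabp7 differed by 0.75 and -0.24. Other enzymes had no such opposed forms past the test. The arginase genes were 1.35 for Arg1 and -0.29 for Arg2. That of Arg2 did not pass the test (adjusted p = 0.0727). Glutaminase Gls2 and glutamate dehydrogenase Glud1, which both feed ammonia to liver urea synthesis, differed by 1.15 and 0.82. The creatine kinases Ckb and Ckmt1 differed by -0.89 and -0.89, and the aspartate aminotransferase gene Got1 did not pass (-0.19).

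Lung made up 5% of both mixtures, and the counts of its genes higher in 70/25/5 stand beside 29.3% higher over all genes. Of 11 alveolar type 2 genes 8 were higher and 0 lower (median 0.51). Sftpb, which encodes a surfactant protein, read 8.93, 8.94 and 9.00 in 70/25/5, against 8.30, 8.40 and 8.35 in 25/70/5, a difference of 0.61 ± 0.05 (adjusted p = 1.55e-11). Pure liver read 3.72 and pure brain 3.53, against 12.66 in pure lung, so the prediction was 0.00. Napsa, a protease that processes surfactant protein, differed by 0.65 and the phosphate carrier gene Slc34a2 by 0.62. Scd, a fatty acid desaturase of liver as well, differed by 1.5, with 10.99 in pure liver and 10.95 in pure lung. Lpcat1 and Abca3 did not pass (0.03 and 0.05). Under the control curve Sftpb stood at 0.24 (adjusted p = 0.411), Napsa at 0.22 and Slc34a2 at 0.24, none past the test, and the list median at 0.19.

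The other lung lists were mixed, and heart muscle (2 of 8) and alveolar type 1 (3 of 7) lay nearer to that share. The alveolar type 1 median of 0.27 turned to -0.05 under the control curve. Of 7 such genes 3 were higher: Aqp5 (0.57), the receptor gene Ager (0.54) and the caveolin gene Cav1 (0.27), whose direction turned to -0.033 under the control curve. Hopx, Pdpn and Clic5 did not pass (-0.04, 0.10 and 0.38). Of 10 airway genes 5 were higher, and their median of 0.31 turned to -0.01 under that curve. Sec14l3 read 7.93, 7.90 and 7.91 in 70/25/5, against 7.35, 7.40 and 7.33 in 25/70/5 (0.55 ± 0.07), whereas Scgb1a1 read 12.29, 12.33 and 12.38 in 70/25/5, against 12.25, 12.29 and 12.36 in 25/70/5 (0.03, adjusted p = 0.777). These airway markers read 3.56 and 3.85 in pure liver and 3.22 and 3.73 in pure brain. Cyp2f4, at 1.88, read 9.25 in pure liver and 8.94 in pure lung.

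Endothelial genes were higher in 8 of 12 and lower in 1 (median 0.45, and 0.03 under the control curve). The receptor genes Eng and Kdr differed by 1.02 and 0.94, with 8.32 and 9.98 in pure liver and 5.87 and 7.10 in pure brain. The lower one, named after its value was seen, was the tight junction gene Cldn5 (-0.36). Of 16 matrix and smooth muscle genes 11 were higher and 1 lower (median 0.28, turning to -0.15 under that curve). Fn1, the plasma and matrix protein fibronectin, differed by 1.28, the collagen gene Col3a1 by 0.75 and the elastic fibre gene Mfap4 by 0.55, while Fbln1 was lower at -0.58. Of 13 white blood cell genes 9 were higher and 1 lower (median 0.44, and 0.08 under that curve), among them the granulocyte gene S100a9 (0.93), the chemokine gene Ccl5 (0.91) and the antigen presentation genes RT1-Da (0.87) and Cd74 (0.83). Coro1a was lower (-0.33), also named after its value was seen. Heart muscle genes, which pure lung held (Myh6 9.32 and Myl7 8.83), had 2 of 8 higher and 1 lower (median -0.09). Myl7 differed by 0.65 ± 0.13, Myh6 by 0.51 ± 0.16, and Ryr2, read at 9.37 in pure brain, by -0.92.

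Macrophage and microglia genes went both ways, beside 29.3% higher over all genes. Of 12 microglia and macrophage genes 7 were higher and 2 lower, and the median of 0.21 turned to -0.06 under the control curve. Cd163, a scavenger receptor of tissue macrophages, read 6.44, 6.58 and 6.40 in 70/25/5, against 4.86, 4.96 and 4.86 in 25/70/5 (1.58 ± 0.09). Cd68 differed by 1.06 and the complement gene C1qc by 0.99. Cx3cr1 and Itgam did not pass (0.05 and 0.01). The lower ones, P2ry12 (-0.83) and Tmem119 (-0.44), mark microglia and were named after their values were seen.

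Other cell types that the tissues could hold were checked by their markers. Of 7 choroid plexus genes 1 was higher and 3 lower (median -0.21): the water channel gene Aqp1, which vessels also carry, at 1.05, against Igf2 at -0.74, Folr1 at -0.54 and Otx2 at -0.90. Other probe sets of Igf2 differed by 0.07, 0.30 and 0.11. Of 8 pituitary genes 2 were higher and 2 lower, and the median of 0.16 turned to -0.27 under the control curve. Lhb was 0.46 and Tshb -0.42, and Pomc, at 0.26, turned to -0.17 under that curve. Pure brain read 5.22 for Lhb and 3.90 for Pomc. Of 5 red blood cell genes 2 were higher (median 0.17, turning to -0.26 under that curve), the heme enzyme gene Alas2 at 0.94 and the globin gene Hbb at 0.25. Of 6 skeletal muscle genes 5 were higher and 1 lower (median 0.65), with Tnnt3 at 0.86 and Ckm at 0.85, while Myh4 (0.38) turned to -0.047 under that curve. The lower one was Pvalb, a calcium-binding gene of neurons too (-0.91). Of 6 fat genes 3 were higher, and the median of 0.20 turned to -0.23 under that curve. They were Cidec, Fabp4 (0.87) and Lipe (0.28, turning to -0.15), while Adipoq, which marks fat cells, did not pass (-0.20). The part of these cells in other results was not tested.

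Lists of machinery that all 3 tissues use had members in both directions, beside 29.3% higher and 32.5% lower over all genes. Of 11 ribosomal protein genes 2 were higher and 3 lower (median 0.00), from Rplp0 at 0.35 to Rpl3 at -0.30. Of 23 respiratory chain and ATP synthase genes 3 were higher and 8 lower (median -0.02), from Sdhd at 0.41 to Ndufa5 at -0.32. Of 20 proteasome genes 12 were higher and 3 lower (median 0.15, turning to -0.01 under the control curve), with Psmb2 at 0.50 and Psmc5 at -0.38. Of 9 genes often used as references 3 were higher and 4 lower (median -0.06). Gusb, a lysosomal enzyme, differed by 1.02 and B2m by 0.52, while Ywhaz differed by -0.82 and Tubb5 by -0.76. Tbp and Eef1a1 did not pass (-0.06 and -0.05). Ywhaz read 11.09, 11.10 and 11.06 in 70/25/5, against 11.87, 11.94 and 11.91 in 25/70/5. Of the sodium pump genes 5 of 6 were lower (median -0.67), including the subunit genes Atp1b1 (-0.90) and Atp1b2 (-0.84), and Fxyd1 was higher (0.70). Over all genes 7741 (54.4%) differed by a ratio under 5 to 4.

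The pure arrays, which are other arrays than the mixtures, gave a prediction for each probe set: the log2 ratio of the share-weighted sums of the pure tissue levels. Observed and predicted differences correlated at r = 0.934 over all probe sets tested, which share labels and arrays and are not independent, with a slope of 0.87. Only 1 probe set was called against a predicted change of at least 5 to 4 while also departing from its prediction by the limits given next. Called probe sets with smaller predicted changes were not counted. As deposited, 2060 probe sets (6.64%) lay above their prediction and 527 (1.7%) below it, at an adjusted p under 0.05 and a ratio of at least 5 to 4. This balance depended on the scaling: with arrays aligned on bright lung-enriched probe sets 379 lay above and 8775 below, and with median centring 2019 and 1637. With the control curve, the counts were 0 and 0 by limma, and 46 and 93 at an unadjusted p under 0.05. Those are fewer than a limit of 0.05 would let through with no departure at all. The counts of 0 under the curve therefore cannot show that departures were absent.

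The classes of tissue enrichment differed in their medians. The 2259 probe sets at least 2-fold higher in pure liver than in both other tissues had a median difference of 1.00, a 2.0-fold rise, where 0.95 was predicted. Of these 2133 (94.4%) were higher, 0 lower, and 590 were past the share ratio. Of the liver class 409 lay above their prediction and 105 below, as deposited. The 3571 enriched in pure brain had a median of -0.77, 1.70-fold, where -0.99 was predicted. Of these 3548 (99.4%) were lower and 0 higher, the lowest was -1.30, and 1185 lay above their prediction against 3 below. The 2777 enriched in pure lung had a median of 0.10, where 0.09 was predicted, with 959 (34.5%) higher and 375 (13.5%) lower, and 203 lay above their prediction and 6 below. The lung median turned to -0.27 under the control curve. With arrays aligned on bright lung-enriched probe sets it was -0.11. That alignment sets members of the lung class level, so the turn is built in and cannot test whether lung genes differed. The liver and brain medians kept their direction under every scaling run (liver 0.69 to 1.14, brain -1.12 to -0.73).

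**Figure D3:**
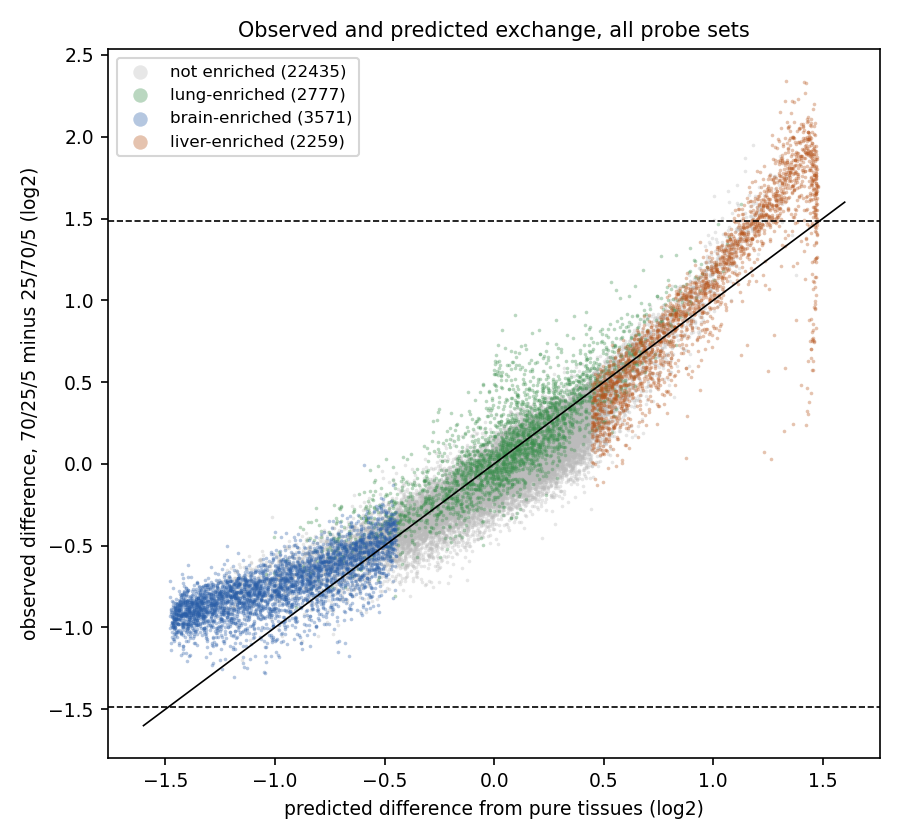
Observed difference, 70/25/5 minus 25/70/5 (log2), against the difference predicted from the pure tissues, for all probe sets tested, coloured by the tissue they are enriched in. The solid line marks equality and the dashed lines the share ratio. Brain-enriched probe sets reach no lower than -1.30, liver-enriched ones reach 2.34, and a column of liver-enriched probe sets drops toward 0 at a prediction near 1.45. The height of the lung-enriched points depends on the scaling, with a median of 0.10 as deposited and -0.27 under the control curve.

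Among genes, 1236 (8.69%) lay above the prediction and 192 (1.35%) below. The 6 farthest above were Rtp3, Dsc2, Angptl8, Frk, S100g and Chia. S100g, a calcium-binding protein gene, read 6.10, 6.38 and 6.40 in 70/25/5, against 5.42, 5.42 and 5.30 in 25/70/5, a difference of 0.91 ± 0.13 where 0.09 was predicted. Its pure levels were 9.87 in lung, 4.77 in liver and 4.11 in brain. Chia, the acidic chitinase of lung, read 6.70, 6.61 and 6.64 in 70/25/5, against 5.80, 5.76 and 5.93 in 25/70/5, a difference of 0.82 ± 0.10 where 0.04 was predicted. Both are genes of lung, and neither passed the test under the control curve (0.48 and 0.39). The 6 farthest below were Cyp2c7, Cyp2c12, Rup2, Apoc3, Gc and Hp, which read 13.15 to 13.60 in pure liver, at the top of the scale. Cyp2c7 read 13.45, 13.42 and 13.43 in 70/25/5, against 13.19, 13.18 and 13.20 in 25/70/5, a difference of 0.24 where 1.42 was predicted. Hp read 13.45, 13.42 and 13.49 in 70/25/5, against 12.97, 12.96 and 13.04 in 25/70/5, where 1.43 was predicted. Pure liver read 13.42 for Cyp2c7 and 13.49 for Hp, close to the 70/25/5 arrays, so the gap to the prediction is a value of these probe sets and not a measure of the transcripts. Whether the arrays were saturated there was not tested.

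The size of the exchange changed with the level in the pure tissue. Liver-enriched probe sets under 6 in pure liver had a median of 1.28-fold higher, those from 6 to 8 1.68-fold, from 8 to 10 2.24-fold, from 10 to 12 2.85-fold and those over 12, 117 in number, 2.17-fold. The median thus passed the share ratio of 2.8 between 10 and 12 and was lower again above, where the prediction was 2.73-fold. Brain-enriched probe sets went from 1.57-fold lower under 6 to 1.86-fold lower over 12, against predictions of 1.55-fold and 2.61-fold. Lung-enriched probe sets went from 1.02-fold under 6 to 1.29-fold higher over 12, where 31 of 42 (73.8%) were higher and 1.05-fold was predicted. The hybridisation controls changed with brightness as well: bioB differed by 0.43, bioC by 0.35, bioD by 0.07 and cre by -0.16. Their part in the pattern was not tested.

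**Figure D4:**
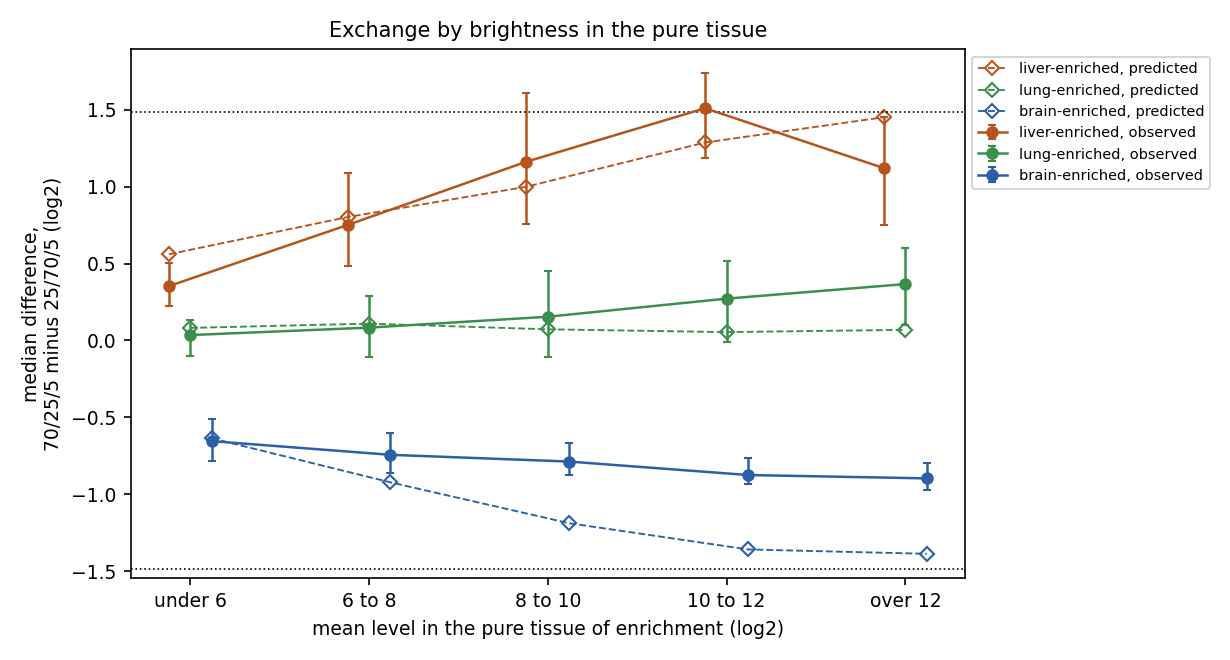
Median difference, 70/25/5 minus 25/70/5 (log2), of liver-, lung- and brain-enriched probe sets by their mean level in the pure tissue of enrichment (log2), with filled points observed, bars from the lower to the upper quartile, open diamonds predicted and dotted lines at the share ratio. Liver reaches 1.51 between 10 and 12 and falls back to 1.12 over 12, while brain stays between -0.65 and -0.90. The lung medians, 0.03 to 0.37 as deposited, depend on the scaling.

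The 60/35/5 mixture, the other one with 5% lung, lay between. Its arrays enter both steps, which share arrays with the whole exchange, so values are given side by side. The median of the liver-enriched probe sets stood 0.71 to 0.74 above the 25/70/5 mean on the 60/35/5 arrays, where 0.79 was predicted, and 0.98 to 1.02 above it on the 70/25/5 arrays, where 0.95 was predicted. The brain-enriched median stood at -0.61 to -0.55 on the 60/35/5 arrays, where -0.71 was predicted, and at -0.78 to -0.75 on the 70/25/5 arrays, where -0.99 was predicted. Thus the 10 points from 60/35/5 to 70/25/5 gave a median of 0.27 for liver and -0.17 for brain, and the 35 points from 25/70/5 to 60/35/5 gave 0.71 and -0.59. Under the control curve the brain median of the 10-point step turned to 0.10 and the liver median was 0.65, against -1.21 and 0.51 for the 35-point step. Those curve values include array 2 of 60/35/5, where bioB read 9.24 against 7.73 and 7.55 on the other arrays of its group. The curve without that array was not tested, so the turn cannot be separated from its controls.

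Named genes at both ends lay between on these arrays. Rtp3 read 7.07, 7.05 and 7.06 on the 60/35/5 arrays, with steps of 1.72 and then 0.61. Cacnb4 read 5.61, 5.92 and 6.08 on those arrays, with steps of -0.74 and then -0.56. Alb read 14.37, 14.42 and 14.31 there. In the first step 6666 probe sets (21.5%) were higher and 9517 (30.7%) lower, and in the second 3594 (11.6%) were higher and 1492 (4.81%) lower. The last count fell to 968 without array 2 of 70/25/5 and to 967 without array 1 of 60/35/5. Array 2 of 60/35/5 stood apart in its controls, with bioB at 9.24 against 7.73 and 7.55 on the other arrays of its group, but not in its class medians.

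**Figure D5:**
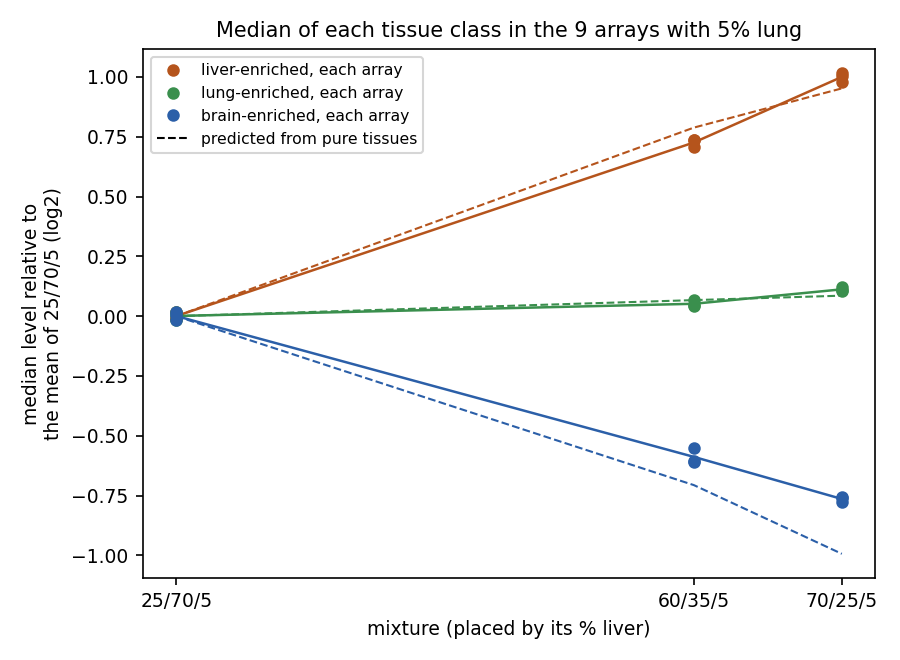
Median log2 level of liver-, lung- and brain-enriched probe sets on each of the 9 arrays with 5% lung, relative to the mean of 25/70/5, placed by the percent of liver, with solid lines through the group means and dashed lines for the prediction from pure tissues. Brain ends at -0.77 where -0.99 was predicted, and liver at 1.00 where 0.95 was predicted. Lung, at 0.10 as deposited, turns to -0.27 under the control curve, and brain's step between 60% and 70% liver turns to 0.10.

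The same exchange was made with other arrays at 25% lung, where 70/5/25 and 55/20/25 differ by 15 points of liver against brain. Brain there changes 4-fold in share and liver 1.27-fold. A transcript of liver alone would differ by 0.35 and one of brain alone by -2.0. Of all probe sets 7184 (23.1%) were higher and 5374 (17.3%) lower in 70/5/25. Under the control curve 0 were higher and 3529 lower (9 and 5871 at an unadjusted p under 0.05), and with median centring 13098 and 4293. Liver-enriched probe sets had a median of 0.39 and brain-enriched ones -0.78. All 12 genes farthest higher at 5% lung were higher there too, by 0.58 to 0.76, and all 12 farthest lower were lower, by -1.86 to -0.57, each past the test as deposited. None of the higher ones passes it under the control curve. Rtp3 differed by 0.62 and Dsc2 by 0.64, above the 0.35 of a liver transcript, and Cacnb4 by -1.32 and Scg5 by -1.6, short of the -2.0 of a brain transcript. Alb differed by 0.02 and Cyp2c7 by 0.02. Among lung genes Sftpb differed by 0.12, S100g by 0.35 and Scgb1a1 by -0.06.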

How the data were processed

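The authors deposited log2 levels per probe set, normalized with RMA per the submitters' processing notes. RMA subtracts background, sets all arrays to 1 distribution and summarises the probes of a set, which can move levels where mixtures differ in many transcripts. Its version and whether all arrays were normalized together are not given in the sources used here. Labels' protocols give total RNA extracted with Trizol, labelled with biotin and mixed as cRNA. Array files hold no counts, so depth is read as signal over background.

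From the 31099 probe sets 57 controls were left out. A limma fit (version 3.58.1, R 4.3.3) over all 42 arrays gave each group a mean, with Benjamini-Hochberg adjustment over the 31042 probe sets left and calls at an adjusted p under 0.05. An exact permutation test of 3 against 3 arrays cannot go below 0.10. Platform annotation gave 20826 probe sets 1 gene, 436 several, and 9780 are unnamed here. A gene was read by its probe set with the highest mean over all arrays. Tissue-enriched means 2-fold or more above both others in pure arrays, at an adjusted p under 0.05. Departures from the prediction were tested with a delta-method error.

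The genes named were the 12 farthest in each direction, those farthest from the prediction, and the largest, the smallest and the opposite members of each list. The members and lists were chosen with earlier results of these data known, and the motif letters after counts of a longer version had been seen. The scripts were tested on simulated data. Plots used matplotlib 3.10.9 and Python 3.11.15.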

Additional observations from a re-analysis of the deposited data

How the results depend on the processing

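No paired analysis was possible because the labels give no replicate numbers. Values are counts higher and lower, then class medians (log2, 70/25/5 minus 25/70/5). Median centring gave medians of 0.69 for liver and 0.134 for lung, 1637 departures below and 13098 probe sets higher at 25% lung. Quantile scaling gave 0.875 for liver, -0.733 for brain and 841 departures below. The control curve gave 1547 higher and 10617 lower (12.7% higher, against 41.7% as deposited), 237 and 96 past the share ratio, medians of 1.14, -1.12 and -0.275, 0 and 0 in the step from 60/35/5 (3589 and 0 at an unadjusted p under 0.05), 632 and 21796 in the step from 25/70/5, 0 and 0 departures (46 and 93 unadjusted), 0 and 3529 at 25% lung (9 and 5871 unadjusted) and 3 of 7 lung lists above 0, against 6. Under it Myh4 turned to -0.047, Cacna1e to -0.13, Lipe to -0.15, Cav1 to -0.033, Pomc to -0.17 and Hmox2 to -0.27. Bright probe sets alone gave 1.10 for liver and 177 departures below. With 1 probe set a gene, counts were 4270 and 4724, medians 1.11 and 0.144 for liver and lung, the step from 60/35/5 had 902 lower, the step from 25/70/5 3806 and 4921, departures 1256 and 207, and 25% lung 4358 and 2810; fewer features were tested. Subtracting the 5th percentile gave 111 past the ratio downwards, 0.716, -0.822 and 0.077, 339 departures below, and Myh4 at 0. At 1.5-fold, 2796 and 3752 were called and 161 and 39 departed. A 4-fold class limit gave 1.51, -0.854 and 0.218. Mixing on the log scale gave 1177 departures below. Alignment on bright lung-enriched probe sets, chosen after seeing the data, gave 3981 and 15988 (19.9% higher), 348 and 2 past the ratio, 0.79, -0.977 and -0.107, 1392 and 8614 in the step from 60/35/5, 379 and 8775 departures, Apoe at -0.025 and Hmox2 at -0.095. Leaving out 1 array gave 6329 to 6521 higher and 8903 to 9235 lower, 635 to 677 past the ratio, medians of 0.976 to 1.01, -0.779 to -0.757 and 0.103 to 0.112, 2654 to 3569 and 967 to 1495 in the step from 60/35/5, 5553 to 6867 and 8633 to 9524 in the step from 25/70/5, 1776 to 2167 and 403 to 635 departures, and 7143 to 7157 and 5344 to 5361 at 25% lung. The alignment on lung-enriched probe sets shifts all probe sets of an array alike, so its moves follow from that shift. The 0 departures under the control curve cannot show that departures were absent, since fewer passed unadjusted than a limit of 0.05 would let through. Under the control curve, the values of both steps include array 2 of 60/35/5, whose controls stood apart. The cause of these moves was otherwise not tested. Values near 2.6, the level of an absent control, leave differences of dim probe sets unresolved.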
